A study of Mus musculus with 12 samples.

Results

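The genes of glycolysis and of glucose and lactate transport were examined in the mouse line RAW264.7, whose cells resemble macrophages. The set was given as a list of 34 gene symbols and all 34 were found among the 31719 symbols of the expression table. It holds 2 glucose transporters (Slc2a1, Slc2a3), the hexokinases Hk1, Hk2 and Hk3, the enzymes of each later glycolytic step with their isozymes, the PFKFB regulators, lactate dehydrogenase, 2 lactate transporters (Slc16a1, Slc16a3), the 4 pyruvate dehydrogenase kinases and Pdha1. Of these, 31 passed the filter on low values and were tested, Pdk2 lay below it, and Ldhb and Pdk4 were listed at 0 in every library.

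RNA sequencing was done on 4 groups of wild-type RAW264.7 cells with 3 libraries each. Untreated cells received no agent, another group received purified antibodies against CD36 at a dilution of 1 in 100, another received lipopolysaccharide (LPS) at 50 ng/ml, and the last received LPS at 50 ng/ml together with the antibody. LPS comes from the outer membrane of bacteria and is sensed by macrophages with TLR4. CD36, the target of the antibody, takes up modified lipoproteins and fatty acids. The stated question was how expression differs between these treatments; none of the 4 groups was given an isotype control antibody, and the treatment time and the source of the 3 libraries of a group were not stated in the labels, so p-values reflect no more than how far these libraries scatter, which may be technical. All cells come from 1 established line.

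Glycolysis splits glucose into pyruvate, and in macrophages activated by LPS it is known to supply energy and biosynthetic precursors while much of the pyruvate leaves the cell as lactate. Flux is controlled mainly at glucose uptake, at hexokinase, at phosphofructokinase and at pyruvate kinase, and most steps have isozymes encoded by separate genes that differ in regulation. Many glycolytic genes are known targets of the hypoxia-inducible factor HIF1A and of MYC. Messenger RNA levels, as measured here, are not enzyme activity or flux.

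The promoters of Slc2a1, Pfkl, Pfkfb3 and Eno2 are shown because these are the 4 genes whose change with LPS differed, by test, between cells with and without the antibody. Each run is the 250 bases before a RefSeq transcription start (build GRCm38.p6), printed 5′ to 3′ on the strand of the gene, and capitals mark ACGTG or GCGTG on either strand, the core letters of the element that HIF1A is known to bind; where CACGTG occurs, which reads alike on both strands, it counts as ACGTG on each.
Slc2a1 (chr4:119108495-119108744, plus strand): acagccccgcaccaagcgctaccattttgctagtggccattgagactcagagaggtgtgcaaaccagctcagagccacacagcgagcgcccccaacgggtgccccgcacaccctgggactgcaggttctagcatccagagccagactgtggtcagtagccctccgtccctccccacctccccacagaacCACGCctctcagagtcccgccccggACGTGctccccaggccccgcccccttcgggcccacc
Pfkl (chr10:78009808-78010057, minus strand): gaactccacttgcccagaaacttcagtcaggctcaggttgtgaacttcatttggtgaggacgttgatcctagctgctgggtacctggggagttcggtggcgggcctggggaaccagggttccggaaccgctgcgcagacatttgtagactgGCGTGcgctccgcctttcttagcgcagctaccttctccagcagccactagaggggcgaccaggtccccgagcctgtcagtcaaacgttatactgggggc
Pfkfb3, outer start (chr2:11553930-11554179, minus strand): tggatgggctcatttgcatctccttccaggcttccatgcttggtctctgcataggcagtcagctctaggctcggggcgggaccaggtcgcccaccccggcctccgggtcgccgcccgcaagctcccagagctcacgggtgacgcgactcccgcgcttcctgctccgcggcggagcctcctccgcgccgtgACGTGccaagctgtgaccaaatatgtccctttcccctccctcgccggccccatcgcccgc
Pfkfb3, inner start (chr2:11502091-11502340, minus strand): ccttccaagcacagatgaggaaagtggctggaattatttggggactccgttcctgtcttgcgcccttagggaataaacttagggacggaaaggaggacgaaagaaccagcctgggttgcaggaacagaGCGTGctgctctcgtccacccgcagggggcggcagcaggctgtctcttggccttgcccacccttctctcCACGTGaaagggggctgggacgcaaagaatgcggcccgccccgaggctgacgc
Eno2 (chr6:124769674-124769923, minus strand): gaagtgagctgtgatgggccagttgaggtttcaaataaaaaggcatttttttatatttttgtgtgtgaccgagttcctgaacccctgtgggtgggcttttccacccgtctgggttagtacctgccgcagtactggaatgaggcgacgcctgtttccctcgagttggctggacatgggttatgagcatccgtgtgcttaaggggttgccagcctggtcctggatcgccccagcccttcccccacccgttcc

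The Slc2a1 window held 1 ACGTG and 1 GCGTG, Pfkl held 1 GCGTG, and the Pfkfb3 windows held 1 ACGTG at the outer start and 2 ACGTG and 1 GCGTG at the inner start. Neither motif was in the Eno2 window. RefSeq promoters were matched for 33 of the 34 genes, 52 windows in all. ACGTG was in 19 of these 52 windows and in 16.6% of all 32841 windows of 250 bases, and GCGTG was in 26 of 52 and in 28.2% of all. At least 1 of the 2 was in 38 of 52 windows and in 38.6% of all windows. Counted by gene it was in 28 of 33, but genes with several windows have more chances of a match. No share by gene over all genes is given, so that count has nothing to be set against. CACGTG alone was in 6 of 52 and in 6.02% of all. These matches describe the letters in the windows and are not evidence of binding.

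Values are FPKM, that is fragment counts scaled to the length of the gene model and the depth of the library, so levels are per length. Depth ran from 30070450 to 54137810 fragments per library. The macrophage identity of the cells was seen in the list of 11 macrophage markers, 9 of which reached 1 FPKM, with Lyz2 between 2670 and 4450 FPKM; Mertk and Mrc1 stayed below 0.1. No marker of fibroblasts, epithelial, endothelial, T and B, erythroid, muscle or neuronal cells reached 1 FPKM, and the defining epithelial markers Epcam, Krt8, Krt18 and Cdh1 were at 0 in all libraries. Cd36 lay between 0.123 and 0.195 FPKM in untreated cells, 0.256 and 0.471 with antibody, 4.40 and 7.33 with LPS and 10.4 and 12.3 with both. The summed macrophage markers, which include the LPS-responsive Cd14, lay between 3900 and 5000 FPKM in untreated cells, 4870 and 5200 with antibody, 5490 and 7100 with LPS and 6520 and 7060 with both. Single markers moved either way. Cd68 lay between 448 and 538 FPKM untreated and 333 and 430 with LPS, and Csf1r between 207 and 224 and between 153 and 175. Itgam lay between 4.44 and 6.13 FPKM untreated and 20.7 and 27.1 with LPS. The 13 mitochondrially encoded mRNAs summed to between 32900 and 40100 FPKM in untreated cells, 36400 and 41400 with antibody, 26600 and 28500 with LPS and 26200 and 26800 with both. Because FPKM is a share of each library, these lower values with LPS move with every LPS comparison below, and their part in them was not tested. Fewer cells of a type and less RNA per cell cannot be told apart in such bulk samples.

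By level the set was dominated by 7 genes with a mean over all libraries of at least 400 FPKM, namely Pkm, Pgk1, Ldha, Gapdh, Eno1, Aldoa and Tpi1. Pgam1, Gpi1, Slc16a1, Slc2a1 and Slc16a3 lay between 50 and 400, 16 genes between 2 and 50, and 6 below 2. Summed over all 34 genes, the level was 6971, 6608 and 5672 FPKM in untreated cells, 6301, 5872 and 6082 with antibody, 7577, 6502 and 5929 with LPS and 5176, 5016 and 4707 with both. The combined group thus lay below all other libraries, at 1.36% to 1.43% of all FPKM, while the untreated and LPS libraries overlapped at 1.89% to 2.17%. The abundant genes set this sum, and the levels of Aldoa, Tpi1, Gapdh, Eno1, Pkm and Ldha followed the library number. In the untreated, LPS and combined groups the library numbered 1 held the highest level of each and that numbered 3 the lowest. With the antibody alone number 1 was again the highest for each of them, and number 2 the lowest.

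With LPS alone, 10 of the 31 tested genes rose and 5 fell relative to untreated cells, in a comparison in which 16.6% of all 10276 tested genes were higher and 33.1% lower. The median change of the tested members was -0.07 on the log2(FPKM + 1) scale, beside -0.14 over all genes tested. The genes that rose were led by Slc2a1 (1.64), Eno2 (1.56), Hk2 (0.97), Pfkp (0.87) and Hk1 (0.64), and Eno3 (-1.19), Bpgm (-0.87) and Pfkm (-0.80) led those that fell. Tests used limma on log2(FPKM + 1) with p-values adjusted over all genes by the Benjamini-Hochberg method, and called genes are those with an adjusted p below 0.05. All log2 changes here are differences on this scale, which understates changes of genes at low levels. Scaling by median of ratios instead of the deposited FPKM moved the median over all genes from -0.14 to -0.01, and no called gene of the set turned its direction under it. With that scaling 11 members were higher and 4 lower with LPS, where 22.5% of all genes were higher and 21.8% lower. The balance of higher and lower calls over all genes thus depends on the scaling here too. Fitted on only the groups compared, 9 members were higher and 4 lower with LPS, beside 13.2% and 24.0% of all genes. The calls of Slc16a3 (adjusted p = 0.0942) and Pdk1 (0.0614) were lost there.

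When the antibody was added to LPS, 17 of the 31 genes were lower than with LPS alone and 1, Eno3, was higher. Over all 10277 genes tested, 8.14% were lower and 7.35% higher in this comparison. These shares rested strongly on single libraries: without LPS 1 they were 19.5% and 19.2%, with 15 members lower, and without LPS 2, LPS 3, LPS+anti-CD36 1, LPS+anti-CD36 2 or LPS+anti-CD36 3 the lower share lay between 3.17% and 4.33% and the higher share between 2.53% and 3.93%, with 13 to 16 members lower. Fitted on only the groups compared, 13 members were lower and 1 higher, beside 5.31% and 3.83% of all genes. The calls of Gpi1, Ldha, Pdk3 and Pfkm were lost there (adjusted p up to 0.103). In the main fit the median change was -0.38 for the tested members and 0.02 over all genes. The largest decreases were in Eno2 (-1.29), Pfkfb3 (-1.17), Pdk1 (-1.08), Pfkl, Tpi1 and Slc16a3 (each -0.99), Slc2a1 (-0.91) and Pfkp (-0.83). They include genes of uptake, the committed step, 1 of the triose steps (Tpi1), lactate export and the gate to the mitochondrion. Aldoa and Gapdh, of the neighbouring triose steps, did not pass. The LPS libraries enter both this comparison and that of LPS with untreated cells, so the 2 sets of changes are not independent.

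Relative to untreated cells, 2 genes were higher and 17 lower with the combination, where 17.9% of all tested genes were higher and 35.1% lower. The median change was -0.38 for the tested members and -0.14 over all genes. Relative to cells with the antibody alone, 3 were higher and 14 lower, where 16.3% of all genes were higher and 31.3% lower. Without Pgam2, which passed the filter only through libraries without LPS, the lower genes numbered 16 and 13 of 30. Pfkfb2, which reached 1 FPKM in no combined library, is also among the 17 that were lower than in untreated cells. With median-of-ratios scaling 6 members were higher and 13 lower than in untreated cells, where 24.8% of all genes were higher and 24.6% lower, and 7 were higher and 9 lower than with the antibody alone, where the shares were 21.8% and 21.6%. The split between higher and lower calls in these comparisons thus depends on the scaling. Against LPS alone the lower calls numbered 14 with that scaling, without Gpi1, Ldha and Pdk3, beside 9.43% of all genes, and 19 with TPM scaling, beside 7.48%.

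**Figure D1:**
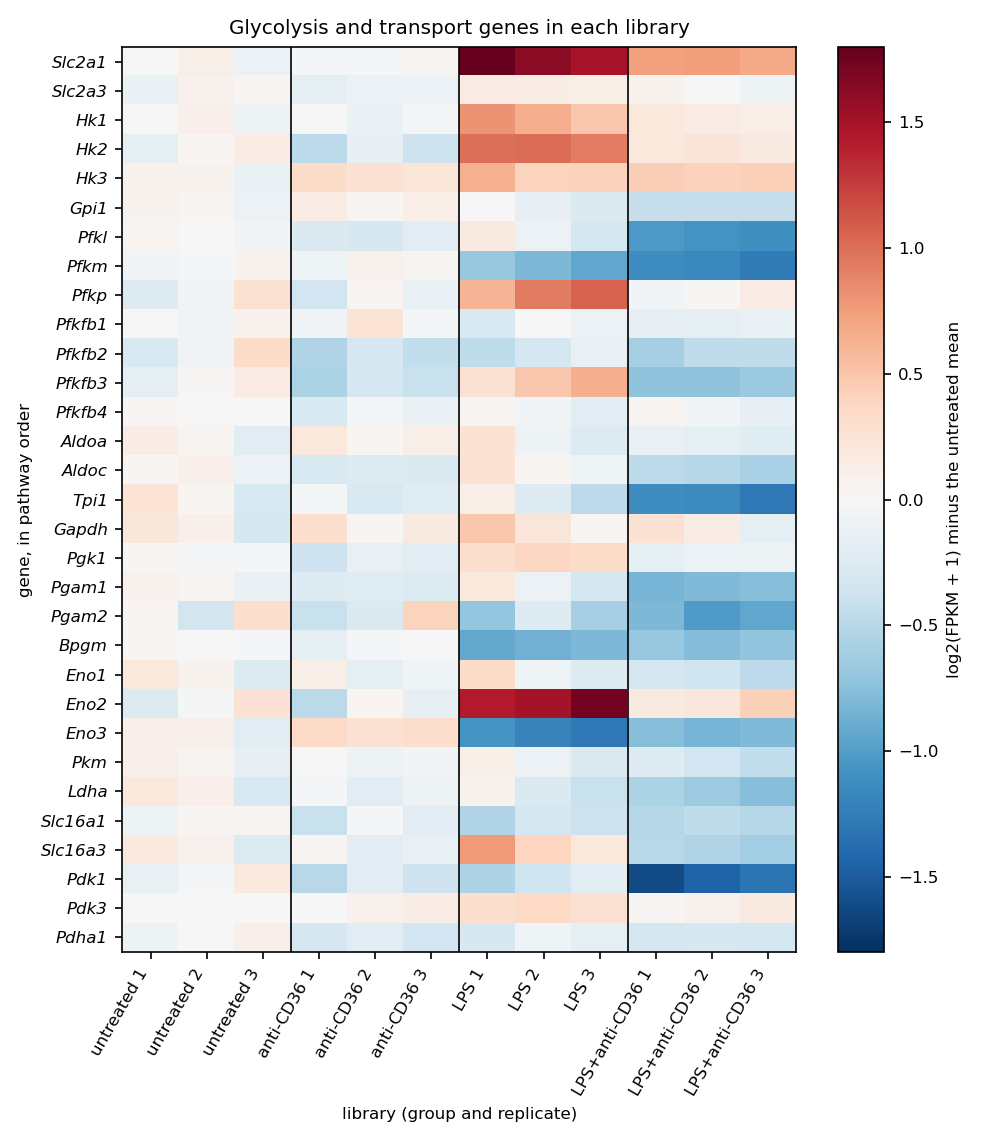
Each cell shows log2(FPKM + 1) of a tested gene (31 rows, in pathway order) in a library (12 columns) minus the mean of the untreated libraries, red above and blue below. Slc2a1, Hk2 and Eno2 are deepest red in the 3 LPS libraries, and Pfkl, Pfkm, Tpi1 and Pdk1 are deepest blue in the 3 libraries with LPS and antibody.

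**Figure D2:**
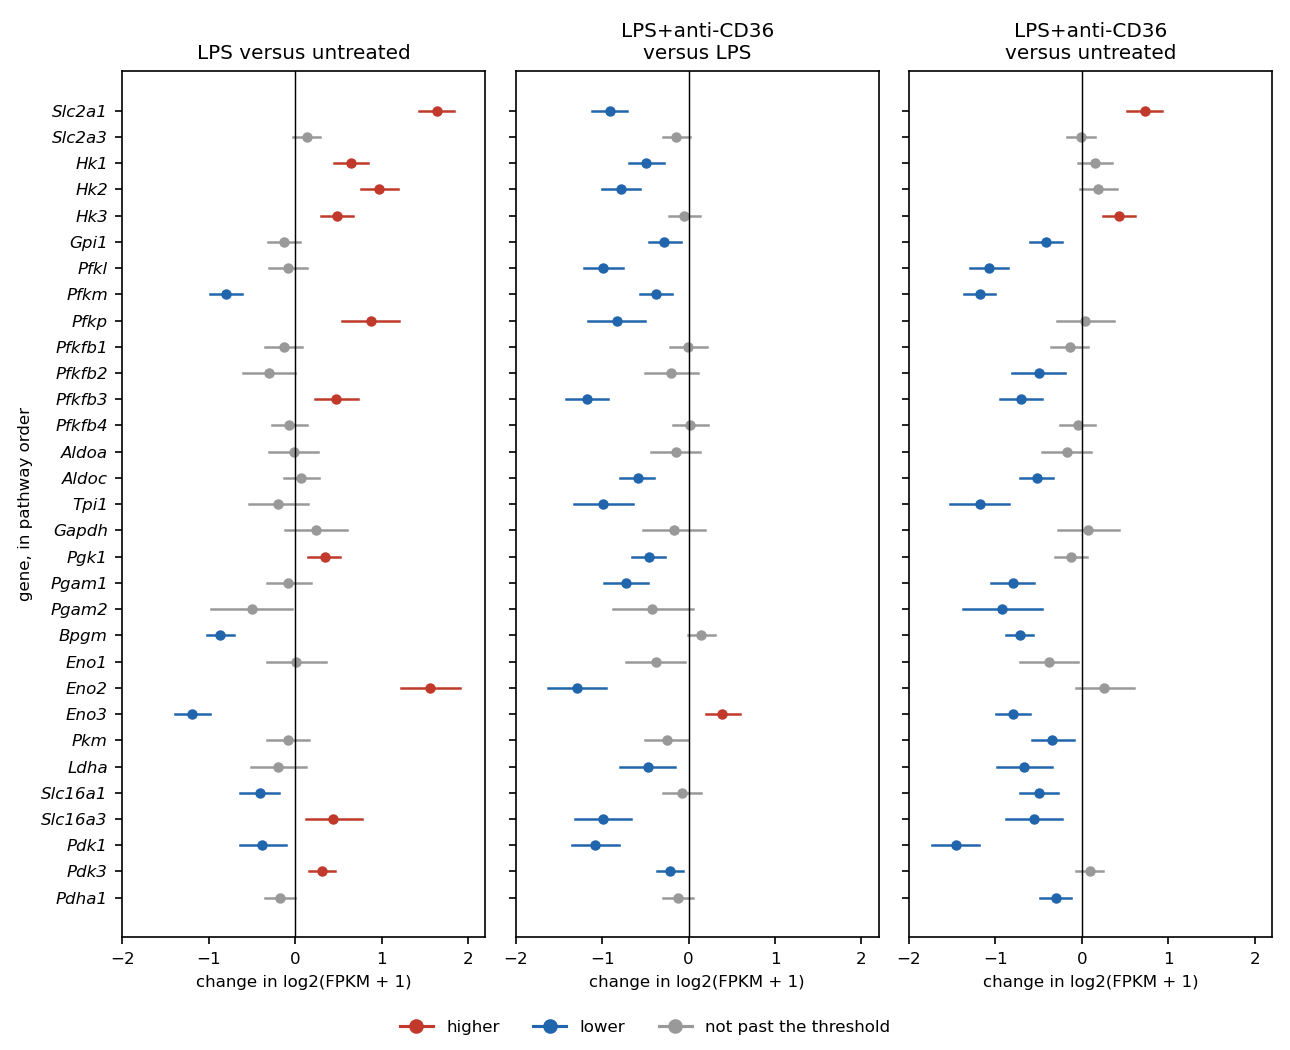
Points are differences in log2(FPKM + 1) between group means from limma and lines their 95% intervals, for 3 comparisons and 31 genes in pathway order, coloured by whether the gene was called higher or lower. In the middle panel, LPS with antibody against LPS alone, 17 genes lie to the left as called and 1, Eno3, to the right.

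Glucose uptake was represented by Slc2a1, which encodes GLUT1, the main glucose transporter of activated macrophages, and Slc2a3, which encodes the high-affinity transporter GLUT3. Slc2a1 (chromosome 4, 119108711 to 119137983, GRCm38) stood at 47.6, 51.5 and 44.3 FPKM in untreated cells, 47.0, 47.1 and 49.2 with antibody, 172, 147 and 135 with LPS and 80.5, 80.9 and 77.5 with both. The LPS libraries lay above all others and the combined libraries lay between them and the rest, without overlap. Its mean rose 3.17-fold with LPS (log2 change 1.64 ± 0.09 SE, adjusted p = 5.46e-08) and was 1.90-fold lower with both than with LPS alone (-0.91 ± 0.09, adjusted p = 0.000105). It remained 1.67-fold above untreated cells in the combined group (0.73 ± 0.09, adjusted p = 4.84e-05). Slc2a3 ranged only from 5.42 to 7.06 FPKM over the 12 libraries and passed no test, with a change with LPS of 0.13 (95% interval -0.03 to 0.29). Slc2a1 made up 88.4% ± 0.984 of the summed FPKM of these 2 transporters in untreated cells and 95.6% ± 0.432 with LPS (± is the SD of 3 libraries here and below unless SE is written).

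Hexokinases phosphorylate glucose and so hold it in the cell. Hk2, the inducible isozyme, stood at 25.0, 28.9 and 31.2 FPKM in untreated cells, 20.2, 25.4 and 21.5 with antibody, 56.9, 57.7 and 54.4 with LPS and 32.2, 33.2 and 31.8 with both. The LPS values lay well above the others, and the combined values just above the untreated ones. Hk2 rose 1.99-fold with LPS (0.97 ± 0.10 SE, adjusted p = 7.25e-06) and was 1.74-fold lower with both than with LPS (-0.78 ± 0.10, adjusted p = 0.000501). Hk1, the widely expressed isozyme, stood at 31.5, 33.6 and 29.6 FPKM untreated, 31.4, 29.1 and 30.9 with antibody, 56.0, 50.0 and 44.3 with LPS and 36.1, 35 and 34.5 with both. It took the same course on a smaller scale, with a rise of 0.64 ± 0.09 (adjusted p = 9.22e-05) and a decrease of -0.49 ± 0.09 (adjusted p = 0.00506). Hk3, an isozyme of blood cells, stood at 15.1, 15.2 and 13.2 FPKM untreated, 18.4, 17.4 and 17.0 with antibody, 23.0, 19.4 and 19.5 with LPS and 20.1, 19.6 and 19.8 with both. Hk3 rose with LPS (0.48 ± 0.08, adjusted p = 0.000527), and its LPS and combined values overlapped (-0.05, 95% interval -0.23 to 0.13). The summed hexokinase level was 74.4 ± 3.07 FPKM untreated, 70.4 ± 1.34 with antibody, 127 ± 8.84 with LPS and 87.4 ± 1.21 with both.

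Gpi1, which isomerises glucose phosphate to fructose phosphate, lay between 113 and 128 FPKM in untreated cells, 125 and 133 with antibody, 102 and 122 with LPS and 91.1 and 91.6 with both. Its decrease from LPS to the combination (-0.28 ± 0.08 SE, adjusted p = 0.0465) was at the threshold and was lost without any 1 of 9 libraries, all but untreated 1, untreated 3 and LPS 3 (adjusted p up to 0.136). Relative to untreated cells it was lower by -0.41 ± 0.08 (adjusted p = 0.00154), a call lost with median-of-ratios scaling (-0.24, adjusted p = 0.0696).

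Phosphofructokinase catalyses the committed step of glycolysis, and its liver (Pfkl), muscle (Pfkm) and platelet (Pfkp) isozymes showed 3 patterns. Pfkl (chromosome 10, 77986947 to 78010083) stood at 30.9, 30 and 29.1 FPKM untreated, 24.9, 24.5 and 26.2 with antibody, 33.7, 27.7 and 24.0 with LPS and 14.1, 13.7 and 13.4 with both. Its untreated and LPS libraries overlapped (-0.09, 95% interval -0.31 to 0.14), while the combined libraries lay far below all others, 2.07-fold under LPS (-0.99 ± 0.10 SE, adjusted p = 0.000121) and 2.18-fold under untreated cells (-1.07 ± 0.10, adjusted p = 4.18e-06). Pfkp stood at 19.5, 22.3 and 28.2 FPKM untreated, 17.9, 23.6 and 21.2 with antibody, 35.6, 45.2 and 49.1 with LPS and 22.2, 23.4 and 25.7 with both. It was high in the LPS libraries alone, with a rise of 0.87 ± 0.15 (adjusted p = 0.000514) and a decrease of -0.83 ± 0.15 on adding the antibody (adjusted p = 0.005). Pfkm stood at 9.21, 9.40 and 10.0 FPKM untreated, 8.98, 10.1 and 9.89 with antibody, 5.59, 5.04 and 4.52 with LPS and 3.87, 3.72 and 3.39 with both. Pfkm fell with LPS (-0.80 ± 0.08, adjusted p = 8.63e-06) and was lower again with both (-0.38 ± 0.08, adjusted p = 0.0135), a call lost without LPS 2, LPS+anti-CD36 2 or LPS+anti-CD36 3 (adjusted p up to 0.0578).

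The makeup of the phosphofructokinase mRNA pool was as follows. Pfkp made up 36.9% ± 4.62 of the summed FPKM in untreated cells, 56.3% ± 8.02 with LPS and 57.7% ± 2.59 with both, and Pfkm 15.2% ± 0.282, 6.58% ± 0.824 and 8.89% ± 0.842. The pool itself was 62.9 ± 3.92 FPKM untreated, 55.8 ± 3.43 with antibody, 76.8 ± 1.66 with LPS and 41.2 ± 1.18 with both. The Pfkp share of each library given LPS, with or without the antibody, lay above that of each untreated library, and the total was lowest with both. Exons of Pfkm overlap those of Senp1 (mean 5.76 FPKM) on the opposite strand and exons of Pfkp those of Pitrm1 (mean 16.2 FPKM), and since no strand setting of the counting was given, reads of such pairs cannot be told apart.

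The PFKFB enzymes make and break fructose bisphosphate of the regulatory kind, the strongest activator of phosphofructokinase, and PFKFB3 is the form with the highest kinase activity. Pfkfb3 (chromosome 2, 11471433 to 11554077) stood at 7.68, 8.95 and 9.85 FPKM untreated, 5.61, 6.86 and 6.44 with antibody, 10.8, 12.6 and 14.4 with LPS and 4.94, 4.95 and 5.14 with both. The LPS libraries were the highest and the combined libraries the lowest, below the antibody alone. Pfkfb3 rose with LPS (0.47 ± 0.11 SE, adjusted p = 0.00417), was 2.52-fold lower with both than with LPS (-1.17 ± 0.11, adjusted p = 6.11e-05) and then stood below untreated cells (-0.70 ± 0.11, adjusted p = 0.000256). Its share of the PFKFB mRNA was 58.9% ± 1.69 untreated, 70.3% ± 3.29 with LPS and 49.7% ± 1.5 with both. Pfkfb4 ranged from 2.89 to 3.87 FPKM and Pfkfb1 from 0.716 to 1.46, and neither passed any pairwise test. Pfkfb2, between 0.520 and 1.89 FPKM and at 1 or more only in untreated 2, untreated 3 and LPS 3, was lower with both than untreated (-0.50 ± 0.14, adjusted p = 0.0103). Because it passed the filter through those libraries and none of the combined group, this call is given as a description. Its exons overlap Yod1 (mean 5.63 FPKM) on the opposite strand, and those of Pfkfb1 overlap Apex2 (mean 2.35 FPKM).

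**Figure D3:**
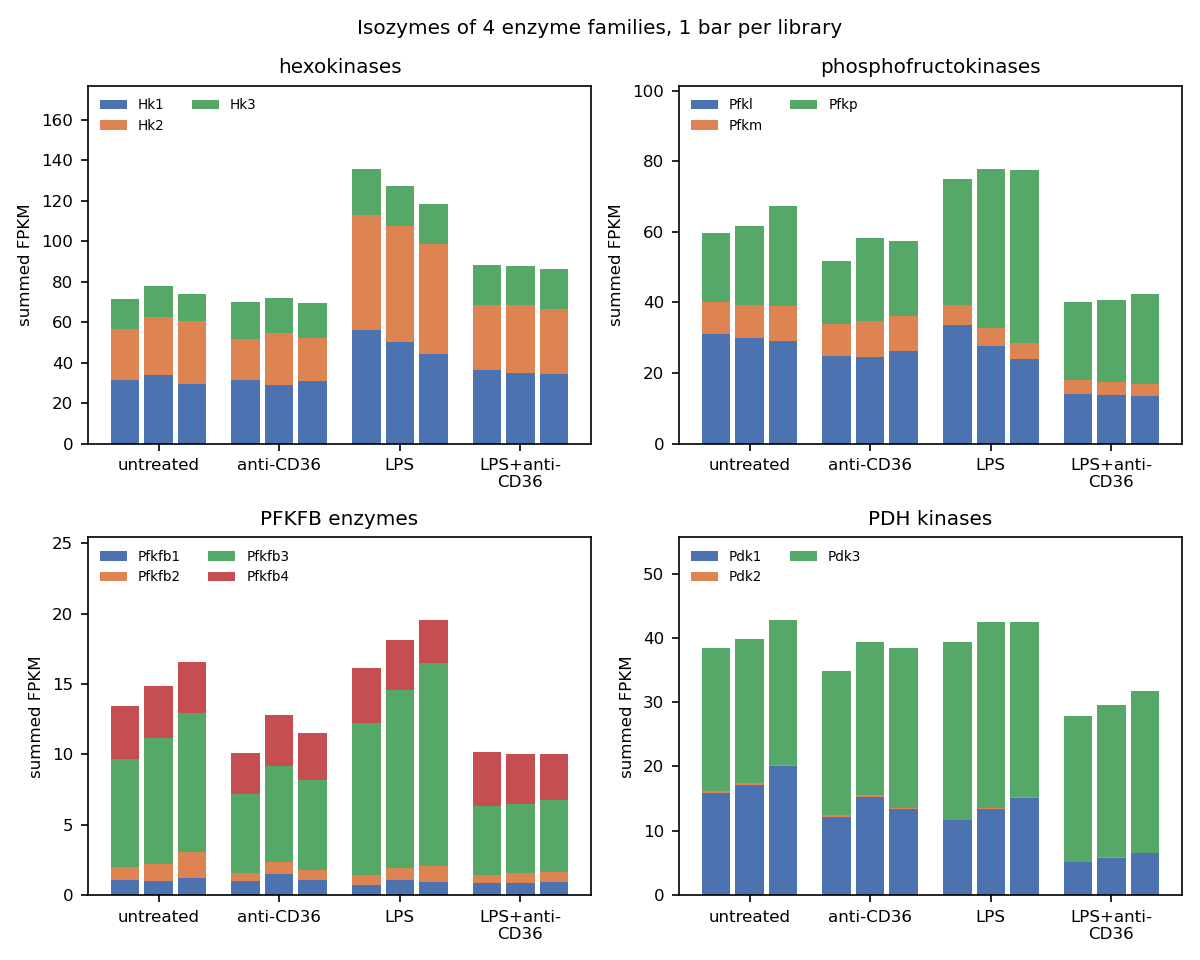
Stacked bars give the FPKM of the isozymes of hexokinase, phosphofructokinase, the PFKFB enzymes and the pyruvate dehydrogenase (PDH) kinases, 1 bar per library and 3 libraries per group. The hexokinase total is highest with LPS (127 ± 8.84 FPKM), and the phosphofructokinase total lowest with LPS and antibody (41.2 ± 1.18 FPKM).

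The triose steps are catalysed by aldolase, triosephosphate isomerase and glyceraldehyde phosphate dehydrogenase, which are neighbours in the pathway. Tpi1, which interconverts the triose phosphates, stood at 653, 566 and 456 FPKM untreated, 538, 456 and 475 with antibody, 596, 469 and 400.1 with LPS and 254, 248 and 226 with both. The combined libraries held about the same low level, below every other library, and the other groups overlapped. Tpi1 was 2.01-fold lower with both than with LPS (-0.99 ± 0.16 SE, adjusted p = 0.00225) and 2.30-fold lower than untreated (-1.18 ± 0.16, adjusted p = 6.35e-05). Gapdh, the next enzyme, stood at 757, 700.0 and 536 FPKM untreated, 808, 672 and 737 with antibody, 919, 761 and 672 with LPS and 785, 723 and 582 with both. Its groups overlapped in every comparison, and the change from LPS to the combination was -0.17 (95% interval -0.53 to 0.19).

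Aldoa, the main aldolase, likewise passed no test, with 432 to 615 FPKM over all libraries and a change of -0.15 (95% interval -0.44 to 0.13) on adding the antibody to LPS. Aldoc, the brain-type aldolase, stood at 23.6, 24.8 and 21.7 FPKM untreated, 19.1, 19.5 and 19.3 with antibody, 28.0, 23.9 and 22.0 with LPS and 16.6, 16.1 and 15.2 with both. It did not pass with LPS alone (0.07, 95% interval -0.13 to 0.27) and was 1.55-fold lower with both than with LPS (-0.59 ± 0.09 SE, adjusted p = 0.00168). Aldoa made up between 95.4% and 96.6% of the aldolase mRNA as group means, so the total followed Aldoa. In GENCODE M21 the symbol Aldoa belongs to 2 gene models, so which of them the table holds is not known and no position is given.

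Lower glycolysis starts with Pgk1, the phosphoglycerate kinase that makes ATP. It stood at 983, 944 and 939.6 FPKM untreated, 739.5, 867 and 831 with antibody, 1189, 1234 and 1197 with LPS and 847, 887 and 898 with both. The LPS libraries were the highest without overlap, with a rise of 0.34 ± 0.08 SE (adjusted p = 0.00613) and a decrease of -0.46 ± 0.08 on adding the antibody (adjusted p = 0.00544). Pgam1, the main phosphoglycerate mutase, stood at 441, 434 and 387 FPKM untreated, 357, 359 and 355 with antibody, 479.7, 390.0 and 337 with LPS and 234, 241 and 246 with both. Its LPS and untreated values overlapped (-0.08, 95% interval -0.33 to 0.18), and the combination was 1.67-fold below LPS (-0.72 ± 0.12, adjusted p = 0.00219).

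Bpgm, which diverts an intermediate into bisphosphoglycerate, stood at 5.91, 5.72 and 5.53 FPKM untreated, 4.98, 5.54 and 5.69 with antibody, 2.54, 2.69 and 2.84 with LPS and 3.19, 2.92 and 3.10 with both. It was low in both groups given LPS, 2.13-fold lower with LPS than untreated (-0.87 ± 0.07 SE, adjusted p = 1.12e-06), and did not pass between them (0.14, 95% interval -0.01 to 0.30). Pgam2, the muscle mutase, rested on few reads, between 18 and 55 fragments in untreated libraries and 2 and 7 with both. It passed the filter only through untreated 1, untreated 3 and anti-CD36 3, and its lower call with both against untreated cells (-0.92 ± 0.21, adjusted p = 0.00322) is given as a description for that reason.

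The 3 enolases, which form phosphoenolpyruvate, moved in unlike directions. Eno2 (chromosome 6, 124760053 to 124769673), the neuron-type isozyme, stood at 5.54, 6.63 and 8.22 FPKM untreated, 4.51, 6.88 and 5.94 with antibody, 19.9, 20.9 and 24.8 with LPS and 7.63, 7.85 and 9.42 with both. The LPS libraries stood well apart, and the combined libraries overlapped the untreated ones. Eno2 rose 3.21-fold with LPS (1.56 ± 0.15 SE, adjusted p = 5.89e-06) and was 2.63-fold lower with both than with LPS (-1.29 ± 0.15, adjusted p = 0.000320), and the defining neuron markers Rbfox3, Tubb3 and Snap25 summed to at most 0.110 FPKM in any library. Eno3 (chromosome 11, 70657202 to 70662513), the muscle-type isozyme, stood at 20.2, 20.1 and 16.4 FPKM untreated, 24.1, 22.8 and 23.7 with antibody, 8.38, 7.63 and 7.09 with LPS and 10.7, 10.1 and 10.4 with both. Eno3 fell 2.45-fold with LPS (-1.19 ± 0.09, adjusted p = 5.61e-07) and was the sole member higher with both than with LPS (0.39 ± 0.09, adjusted p = 0.0155). That increase was lost without LPS 2, LPS 3, LPS+anti-CD36 1 or LPS+anti-CD36 3 (adjusted p up to 0.0675) and once the trend with GC content and gene length was removed (adjusted p = 0.199).

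Eno1, the general enolase, stood at 642, 588 and 472 FPKM untreated, 606, 496 and 535 with antibody, 709, 534 and 477 with LPS and 455, 439 and 406 with both. It made up between 94.9% and 95.9% of enolase mRNA as group means and passed no test, with a change of -0.38 (95% interval -0.72 to -0.04, adjusted p = 0.108) from LPS to the combination. The table lists the near-identical copy Eno1b at 239 to 363 FPKM, so the split of reads between the pair is uncertain. Gapdh, Aldoa, Ldha, Pgam1, Tpi1 and Pkm may likewise share reads with processed pseudogenes, and how the authors counted such reads was not given in the sources used here.

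Pkm, which encodes pyruvate kinase, lay between 969 and 1143 FPKM in untreated cells, 1006 and 1076 with antibody, 896 and 1159 with LPS and 788 and 916 with both. It did not pass with LPS (-0.09, 95% interval -0.33 to 0.16) or between the combination and LPS (-0.25, 95% interval -0.50 to -0.01, adjusted p = 0.139). Pkm was lower with both than untreated (-0.34 ± 0.11 SE, adjusted p = 0.0249), a call lost without untreated 1, untreated 2, LPS+anti-CD36 2 or LPS+anti-CD36 3 (adjusted p up to 0.0938) and with median-of-ratios scaling (-0.17, adjusted p = 0.331). FPKM per gene does not separate the PKM1 and PKM2 splice forms.

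Ldha, whose enzyme turns pyruvate into lactate, stood at 1176, 1095 and 852 FPKM untreated, 1019, 892 and 965 with antibody, 1081, 859.6 and 784 with LPS and 693, 653 and 604 with both. The combined libraries were the lowest and the other groups overlapped. Ldha was 1.60-fold lower with both than untreated (-0.67 ± 0.14 SE, adjusted p = 0.00222) and 1.40-fold lower than with LPS (-0.47 ± 0.14, adjusted p = 0.0479), the latter lost without any 1 of 9 libraries, all but untreated 1, untreated 3 and LPS 3 (adjusted p up to 0.130). Ldhb, the heart-type subunit, was listed at 0 in all 12 libraries, where 3 fragments would have been 0.0353 to 0.0635 FPKM, a limit for counting error only.

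The lactate transporters moved apart with LPS alone. Relative to untreated cells both were lower with the combination in limma, Slc16a1 by -0.50 ± 0.10 SE (adjusted p = 0.00151) and Slc16a3 by -0.55 ± 0.15 (adjusted p = 0.00836). The latter call was lost with median-of-ratios scaling (adjusted p = 0.086). Slc16a3, which encodes MCT4, the exporter typical of glycolytic cells, stood at 71.0, 65.9 and 52.7 FPKM untreated, 65.2, 54.2 and 57.1 with antibody, 107, 82.0 and 71.4 with LPS and 44.3, 42.9 and 40.5 with both. Its LPS libraries were the highest and its combined libraries the lowest of all 12. The rise with LPS (0.44 ± 0.15 SE, adjusted p = 0.0263) was lost without untreated 3 or LPS 1 (adjusted p up to 0.0945), and the decrease from LPS to the combination was 2.04-fold (-0.99 ± 0.15, adjusted p = 0.00147). Slc16a1, which encodes MCT1, a carrier that works in both directions, stood at 104, 113 and 115 FPKM untreated, 83.5, 109 and 97.3 with antibody, 75.7, 88.9 and 84.2 with LPS and 77.0, 80.1 and 77.2 with both. It fell with LPS (-0.41 ± 0.10, adjusted p = 0.00503), and its LPS and combined libraries overlapped (-0.08, 95% interval -0.30 to 0.14). Slc16a3 made up 36.3% ± 4.55 of the summed FPKM of both carriers in untreated cells, 50.8% ± 6.85 with LPS and 35.3% ± 1.12 with the combination.

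Pyruvate enters the mitochondrion through pyruvate dehydrogenase, which the PDK kinases switch off. Pdk1, a known HIF1A target, stood at 15.9, 17.1 and 20.0 FPKM untreated, 12.2, 15.3 and 13.4 with antibody, 11.7, 13.4 and 15.2 with LPS and 5.10, 5.82 and 6.5 with both. The combined libraries lay below all others. Pdk1 was 2.31-fold lower with both than with LPS (-1.08 ± 0.12 SE, adjusted p = 0.000226) and 3.05-fold lower than untreated (-1.46 ± 0.12, adjusted p = 1.39e-06). It also fell with LPS alone (-0.38 ± 0.12, adjusted p = 0.0242), a call lost without untreated 3, LPS 1 or LPS 2 (adjusted p up to 0.0847) and with median-of-ratios (adjusted p = 0.091) or TPM scaling (adjusted p = 0.0732).

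Pdk3 stood at 22.3, 22.4 and 22.6 FPKM untreated, 22.4, 23.7 and 24.8 with antibody, 27.6, 29.0 and 27.4 with LPS and 22.7, 23.7 and 25.1 with both. It rose with LPS (0.31 ± 0.07 SE, adjusted p = 0.00286), opposite to Pdk1, and its decrease on adding the antibody (-0.22 ± 0.07, adjusted p = 0.0493) was lost without any 1 of 9 libraries, all but untreated 3, anti-CD36 1 and LPS 1 (adjusted p up to 0.183). Pdk1 made up 43.8% ± 2.74 of the PDK mRNA in untreated cells, 36.2% ± 2.26 with antibody, 32.3% ± 3.02 with LPS and 19.5% ± 1.13 with both, and Pdk3 nearly all of the rest. Pdk2 rested on 24 to 34 fragments per untreated library, 16 to 36 with antibody, 2 to 4 with LPS and 8 to 10 with both, and at no more than 0.315 FPKM it lay below the filter. Pdk4 was listed at 0 in all libraries, where 3 fragments would have been 0.0158 to 0.0284 FPKM. Pdha1, the catalytic subunit of the dehydrogenase, lay between 17.9 and 24.6 FPKM in all libraries and was lower with both than untreated (-0.30 ± 0.08, adjusted p = 0.00763), a call lost with median-of-ratios scaling (-0.14, adjusted p = 0.124).

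**Figure D4:**
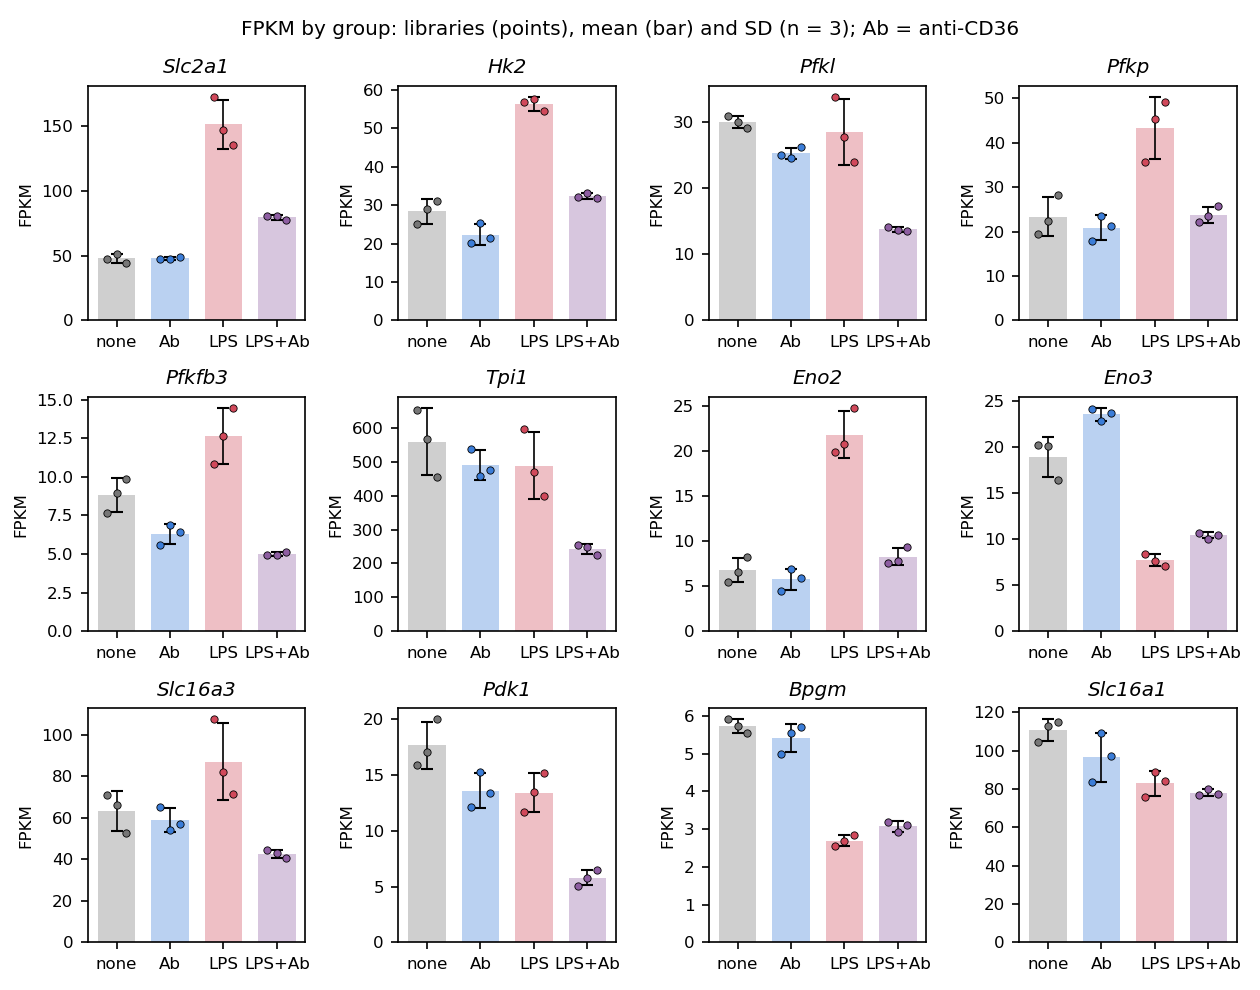
FPKM of 12 genes in the 4 groups, with the libraries as points, the mean as a bar from 0 and the SD of 3 libraries as the error bar (Ab is anti-CD36). Slc2a1, Hk2, Pfkp, Pfkfb3, Eno2 and Slc16a3 are highest with LPS, while Eno3 and Bpgm are low in both groups given LPS.

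The antibody alone was compared with untreated cells to give its effect on resting cells. No tested member passed in limma, in a comparison in which 0.341% of all genes did. At an unadjusted p under 0.05 there were 10 of 31 members, 8 of them lower, and 19.2% of all genes, 10.2% lower, and the median change was -0.11 beside -0.01 over all genes. The members furthest from 0, picked here by their values, were Pfkfb3 (-0.43, 95% interval -0.67 to -0.18, adjusted p = 0.124), Pfkfb2 (-0.43, 95% interval -0.74 to -0.12, adjusted p = 0.171), Pdk1 (-0.35, adjusted p = 0.183), Hk2 (-0.33, adjusted p = 0.152) and Eno3 (0.31, 95% interval 0.11 to 0.50, adjusted p = 0.148). Missing the threshold does not show that the antibody alone left them as they were. Slc2a1 differed by 0.00 (95% interval -0.20 to 0.21). The absence of calls depended on the model. With a replicate block in the limma fit 8 members passed, 2 higher and 6 lower, beside 5.21% and 6.12% of all genes.

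Whether the antibody altered the LPS response was asked by the interaction, the change with LPS in antibody-treated cells minus that in cells without antibody. Of the 31 members 4 passed, all lower, where 0.788% of all genes were lower; 16 members had an unadjusted p under 0.05, all lower, as did 8.6% of all genes, 4.44% lower, and the median was -0.33 beside 0.01 over all genes. Slc2a1 rose by 1.64 without and 0.72 with the antibody, a difference of -0.91 ± 0.13 SE (adjusted p = 0.00424) that passed in each alternative run. Eno2 rose by 1.56 without and 0.47 with it, a difference of -1.09 ± 0.22 (adjusted p = 0.0334). The change of Pfkl was -0.09 without and -0.83 with the antibody, differing by -0.74 ± 0.15 (adjusted p = 0.0307), and that of Pfkfb3 was 0.47 and -0.28, differing by -0.75 ± 0.16 (adjusted p = 0.0447). The calls of Eno2, Pfkl and Pfkfb3 were close to the threshold: Pfkl passed with a library left out only for LPS 1 and LPS 3 (adjusted p up to 0.106 for the rest), Eno2 only for untreated 3, anti-CD36 1, LPS 1 and LPS+anti-CD36 3 (up to 0.109), and Pfkfb3 only for untreated 3, anti-CD36 1 and LPS 1 (up to 0.142). The call of Pfkl was also lost with median-of-ratios scaling (adjusted p = 0.0535), and with TPM scaling those of Eno2 (0.105) and Pfkfb3 (0.2) were lost. Just outside the threshold lay Slc16a3 (-0.90 ± 0.21, adjusted p = 0.0757) and Pdk1 (-0.73 ± 0.17, adjusted p = 0.0854). For Eno3 (0.08, 95% interval -0.19 to 0.36) and Bpgm (0.21, 95% interval -0.01 to 0.43), which fell with LPS, no interaction was detected.

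Other genes of glucose and pyruvate metabolism were taken from a list of 49, of which 26 were tested. With LPS 7 rose (26.9%) and 9 fell (34.6%), beside 16.6% and 33.1% of all genes, and the median of -0.14 was that of all genes. Pck2, a mitochondrial enzyme of phosphoenolpyruvate synthesis, stood at 3.5 ± 0.170 FPKM untreated and 11.3 ± 1.40 with LPS (1.45 ± 0.08 SE, adjusted p = 5.84e-08). Gys1, glycogen synthase, rose from 12.5 ± 0.877 to 28.7 ± 3.90 (1.13 ± 0.10, adjusted p = 1.46e-06), while Gpd1l (-1.15 ± 0.09, adjusted p = 8.6e-07) and Pygb, a glycogen phosphorylase (-0.82 ± 0.07, adjusted p = 2.39e-06), fell. When the antibody was added to LPS, 6 of the 26 were lower (23.1%) and 0 higher, beside 8.14% and 7.35% of all genes, and the median of 0.02 was that of all genes. The largest decreases were in Pgm1, phosphoglucomutase, at 19.8 ± 0.743 FPKM against 49.3 ± 1.79 with LPS alone (-1.27 ± 0.09, adjusted p = 5.84e-06), in Gys1 at 12.0 ± 0.216 against 28.7 ± 3.90 (-1.19 ± 0.10, adjusted p = 1.69e-05) and in Gbe1, the glycogen branching enzyme, at 2.97 ± 0.276 against 7.38 ± 1.08 (-1.07 ± 0.11, adjusted p = 0.000105). Pdpr, a regulator of pyruvate dehydrogenase phosphatase, followed at -0.92 ± 0.15 (adjusted p = 0.00243). With the antibody alone Pck2 was higher (0.63 ± 0.08, adjusted p = 0.0129), a call lost without untreated 2, untreated 3, anti-CD36 1 or anti-CD36 3 (adjusted p up to 0.174), and Pdpr lower (-0.82 ± 0.15, adjusted p = 0.0474), a call lost in 12 of 21 alternatives (up to 0.241). In the interaction 3 of the 26 passed (11.5%, beside 0.788% of all genes), all lower, and these were Pgm1, Gys1 and Gbe1; that of Gbe1 was lost in 4 of 20 alternatives (adjusted p up to 0.0734).

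A list of 26 known regulators of glycolysis genes had 22 tested members. With LPS 4 rose (18.2%) and 8 fell (36.4%), near the 16.6% and 33.1% of all genes (median -0.11). Myc stood at 0.187 ± 0.0563 FPKM untreated and 7.86 ± 0.969 with LPS (2.89 ± 0.09 SE, adjusted p = 3.41e-10), while Mycn fell from 202 ± 21.8 to 99.1 ± 16.9 (-1.03 ± 0.13, adjusted p = 5.91e-05). The untreated libraries held Myc below the 1 FPKM of the filter, which it passed only through other groups. Its rise, counted among the 4, is therefore given as a description. Mlx, a partner of the glucose-sensing MondoA and ChREBP factors, rose (0.61 ± 0.12, adjusted p = 0.00119), and Akt1 fell (-0.60 ± 0.13, adjusted p = 0.00240). When the antibody was added to LPS, 7 were lower (31.8%) and 1 higher (4.55%), beside 8.14% and 7.35% of all genes (median -0.14). Egln1 and Egln3, oxygen-dependent hydroxylases that mark HIF1A for degradation and are themselves known HIF1A targets, were lower by -1.33 ± 0.10 (adjusted p = 1.33e-05) and -0.98 ± 0.08 (adjusted p = 1.26e-05), and Vhl, which recognises the marked protein, by -0.63 ± 0.08 (adjusted p = 0.000547). Hif1a itself stood at 67.0 ± 12.8 FPKM with LPS and 44.0 ± 3.42 with both (-0.58 ± 0.17, adjusted p = 0.0411), a call lost in 10 of 21 alternatives (up to 0.156), 7 of them the leaving out of 1 library. The other regulators called in this comparison were Myc, Tigar, Hif1an and Txnip, and the 1 that was higher is among these. The calls of Myc and Tigar held in each of the 21 alternatives, and those of Hif1an and Txnip were lost in 6 and 3. In the interaction 3 of the 22 passed (13.6%, beside 0.788% of all genes), all lower, and these were Egln1, Egln3 and Vhl; that of Vhl was lost in 5 of 20 alternatives (adjusted p up to 0.0805). With the antibody alone 0 of the 22 passed in limma, and 5 had an unadjusted p under 0.05, as did 19.2% of all genes.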

How the data were processed

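Gene expression was read from 1 table of FPKM values computed and deposited by the authors, with 1 column per library. Per the submitters' processing notes, reads went through HISAT2 2.0.5, and mm39 and hg38 appear there as builds without a role; the counter, annotation and filters are not given in the sources used here. The labels also carry the words 10x Genomics, but the table holds no cells. FPKM of 94.5% of 17645 checked genes were whole fragments (within 0.005) at exon lengths of GENCODE M21 (GRCm38), which gave the depths. Coordinates are from that annotation. Of 31801 entries, 82 with a repeated symbol were left out.

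The 10277 genes that reached 1 FPKM in 3 or more of the 12 libraries were tested on log2(FPKM + 1) with limma 3.58.1 (R 4.3.3), 4 group means and an intensity trend. Il6 was left out of comparisons with untreated or anti-CD36 libraries, whose Il6 values equalled those of another entry, leaving 10276. P-values were adjusted over all genes tested (Benjamini-Hochberg). The fit of LPS with antibody against LPS was also run on simulated fragment counts. These were drawn independently for each library, so that run did not cover deviations shared between libraries. Tables and plots used Python 3.11.15, pandas 2.3.3, numpy 2.4.6 and matplotlib 3.10.9. The members and the gene lists were chosen with earlier results of these data known. Named genes were the up to 8 called members of largest change with LPS, on adding the antibody to LPS and in the interaction, isozymes with unlike calls, and the up to 4 called genes of largest change in the other lists. For the regulators on adding the antibody to LPS, all called genes are named. Alternatives were other scalings (median of ratios, TPM), a pseudocount of 0.1, no filter, no intensity trend, only the groups compared, a replicate block, removal of GC and length trends, and leaving out each library.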

Additional observations from a re-analysis of the deposited data

Results flagged for a closer look

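In 4 genes the change with LPS differed between cells with and without the antibody by the test of the difference itself. The change in log2(FPKM + 1) with the antibody minus that without was -0.91 for Slc2a1, -0.74 for Pfkl, -0.75 for Pfkfb3 and -1.09 for Eno2. Slc2a1 and Eno2 rose with LPS in both settings, by less with the antibody. Pfkfb3 rose with LPS in cells without the antibody (0.47), and its change in cells with it (-0.28, adjusted p = 0.0603 in limma) did not pass. For Pfkl the change with LPS passed with the antibody (-0.83) and not without it (-0.09).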

How the results depend on the processing

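No called member turned its direction under any alternative (73 calls over 6 comparisons). Called under every alternative were 13 of 15 members for LPS against untreated cells, 13 of 18 for LPS with antibody against LPS, 11 of 17 against the antibody alone, 15 of 19 against untreated cells and 1 of 4 (Slc2a1) in the interaction. The matching share of all called genes is not given here, so these counts do not set the members apart from other genes. For the antibody alone, 0 members (0.341% of all genes) became 8 (11.3%) with a replicate block, 6 (3.8%) with the trend with GC content and gene length removed and 9 (9.43%) with both. For the interaction, 4 members (1.28% of all genes) became 2 (0.856%) with a pseudocount of 0.1, 2 (0.744%) without the filter, 8 (2.06%) with the replicate block, 11 (3.48%) with the GC and length trend removed and 16 (5.08%) with both, and 1 to 5 (0.749% to 1.57%) with a library left out: 1 without untreated 1, untreated 2, anti-CD36 2, anti-CD36 3, LPS 2, LPS+anti-CD36 1 or LPS+anti-CD36 2, 2 without LPS+anti-CD36 3, and 5 without LPS 1. The cause was not tested. Same-numbered libraries deviated together for number 1 (r of 0.45 to 0.78) and, for number 3, among the untreated, LPS and combined libraries (0.54 to 0.81). Between anti-CD36 3 and the others of that number r was -0.07 to 0.03, and for number 2 it was -0.32 to 0.43. The labels state no pairing, so the main fit has no block, and whether the numbers mark shared batches was not tested. Pdk2, at no more than 0.315 FPKM and with 24 to 34 fragments per untreated library, was left out by the filter of 1 FPKM. Without the filter it was lower with LPS than untreated (-0.25, adjusted p = 0.00103 in limma), where 19.2% of 18142 genes were lower. Against the antibody alone, the calls of Aldoc, Eno2, Pkm, Slc16a1 and Slc16a3 were each lost without some libraries (adjusted p up to 0.105, 0.111, 0.164, 0.131 and 0.0901).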
